A study of Homo sapiens with 6 samples.

Results

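The genes of ribosome biogenesis and RNA polymerase I were examined in Huh7-R cells, named Huh7SR in the sample labels, after treatment with fostamatinib. The members are 50 genes that were taken by symbol from a list of nucleolar assembly factors, RNA polymerase I components and nucleolar proteins. All 50 were found among the 16305 genes of the processed files, and all 50 had enough reads to be tested. The genes were matched by name and not by a measured value, but the list was drawn up with earlier results of these data known.

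Huh7 is a human hepatocellular carcinoma line, and Huh7-R is a pool of cells derived from it by long exposure to sorafenib. The study's methods withdraw sorafenib from the medium some days before an experiment. RNA was sequenced from 3 samples given fostamatinib and 3 given DMSO, the vehicle, for 24 h. Fostamatinib, an inhibitor of spleen tyrosine kinase, was used at 2 µM, and the labels write 2 µM for the DMSO samples too. Both groups therefore share the resistant background and the poly(A)-selected library type, and no parental or untreated samples were compared here. The labels state that treatments were applied in triplicate but not whether the 3 samples came from separate cultures or days. The p-values rest on the spread between these samples, which may be technical, and in part on the spread of other genes of similar level.

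Ribosomes are built in the nucleolus. RNA polymerase I transcribes the long precursor of the ribosomal RNAs, box C/D and box H/ACA small nucleolar ribonucleoproteins (snoRNPs) modify it, and a long series of assembly factors folds, cuts and exports the small and the large subunit. Nucleoli enlarge in many tumour cells, liver cancer included, and transcription of these genes is known to follow growth signals and MYC.

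The values are log2 CPM, a gene's read count relative to the library's size on a log2 scale, so a difference of 1 is 2-fold. A change is fostamatinib minus DMSO with its standard error (SE), and a gene was called changed at an adjusted p below 0.05 in limma's model over all 16305 genes with Benjamini-Hochberg adjustment. The SE is limma's moderated one, in which each gene's variance is drawn towards a trend over genes of similar level. CPM gives each gene's share of the polyadenylated RNA. In bulk samples fewer cells of a type and less RNA per cell cannot be told apart, and the total RNA of a cell is not measured.

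The libraries held 13303451 to 15272737 reads on the listed genes. Correlations of log2 CPM were at least 0.988 within a group and at most 0.972 between groups, and no library stood apart from its group. The liver and liver cancer cell markers were all detected and all 15 were called higher with fostamatinib, with a summed share of 0.568 to 0.601% of reads in DMSO and 0.768 to 0.817% after fostamatinib. Of 15 markers of other cell types 7 were listed, at a sum of 0.0168 to 0.0173% against 0.0212 to 0.0223%, and 4 were called higher. Defining markers such as PTPRC, CD3E, CD68, ACTA2, VWF, CDH5 and STAB2 were not among the listed genes. Reads on mitochondrial genes made up 6.15 to 6.67% in DMSO and 8.16 to 8.40% with fostamatinib. These differences move with the treatment, and their part in the results below was not tested.

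Nearly the whole list was lower with fostamatinib. Of the 50 members 48 were called lower, 0 higher and 2 passed in neither direction, the exceptions being UBTF and NOC4L. Over all genes 24.5% were called lower and 23.3% higher. The members' median change was −0.59 on the log2 scale, with the middle of the list between −0.73 and −0.42, while the median over all genes was 0.0015 and its middle lay between −0.27 and 0.27. The fall exceeded 0.5 on the log2 scale, with a call, in 32 members. The share of all genes past that limit was not counted. Over all genes the 0.05 and 0.25 quantiles of the change were −0.91 and −0.27. The members' fall exceeded 2-fold, with a call, in 5 members, RRS1, RRP12, RRP9, NOC3L and DDX21, against 3.29% of all genes. The extremes were −1.19 for RRS1 and 0.052 for UBTF.

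The sample values separated the groups for most of the list. In 47 members every fostamatinib sample lay below every DMSO sample, which was the case for 27.4% of all genes, and in no member did every fostamatinib sample lie above every DMSO sample, which was the case for 26.8%. The 3 members whose groups overlapped were UBTF, NOC4L and NOP10. The spread within a group was small, with a median SD of 0.054 in DMSO and 0.056 with fostamatinib over the members, and the largest SD, 0.17 and 0.19, both belonged to PPAN. PPAN was also the sole member with a mean under 100 reads in DMSO, at 38.3, whereas NPM1 had 21770.

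**Figure D1:**
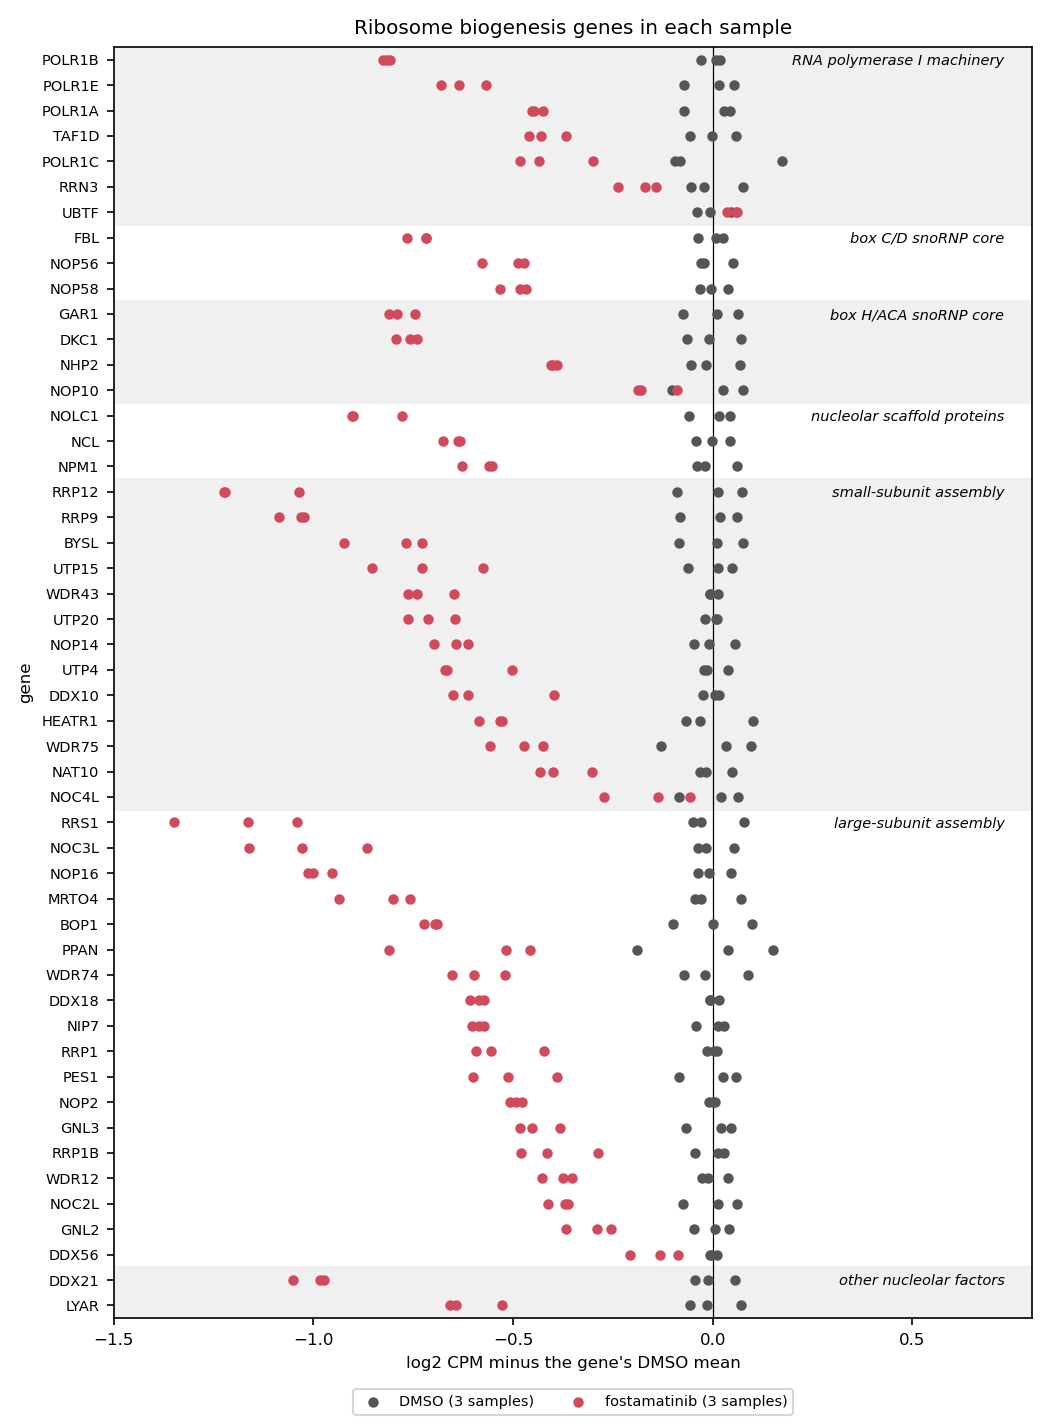
Level of each of the 50 members in each of the 6 samples, as log2 CPM minus the gene's mean over the 3 DMSO samples, with grey points for DMSO and red points for fostamatinib. Genes are ordered by fall within each role, and the red points lie left of all grey points in 47 of the 50 genes, with UBTF, NOC4L and NOP10 as the exceptions.

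Summed over the list, the members' share of all reads was 0.676, 0.673 and 0.684% with DMSO. With fostamatinib it was 0.451, 0.447 and 0.441%, below every DMSO sample. NPM1 and NCL hold much of that sum, and without both the share was 0.426 to 0.431% in DMSO and 0.281 to 0.288% with fostamatinib. The genes of the cytosolic ribosomal proteins, the building blocks that these factors assemble, took 3.98 to 4.18% and 3.85 to 4.12%, and there the groups overlapped.

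Among the 7 members of the RNA polymerase I machinery 6 were called lower, with a median change of −0.42. POLR1A and POLR1B encode the large catalytic subunits. POLR1B measured 6.27, 6.26 and 6.22 log2 CPM in DMSO and 5.43, 5.44 and 5.42 with fostamatinib, a change of −0.82 (SE 0.054, limma adjusted p = 4.63e-15). POLR1A measured 6.85, 6.97 and 6.95 in DMSO against 6.471, 6.477 and 6.499, a change of −0.44 (SE 0.047, limma adjusted p = 7.98e-10). In both genes the groups were clearly apart, and the 3 fostamatinib samples differed from each other by a few hundredths of a log2 unit.

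POLR1E encodes a subunit found in RNA polymerase I alone. Its level was 5.97, 5.85 and 5.93 log2 CPM in DMSO and 5.35, 5.24 and 5.28 with fostamatinib, a change of −0.63 (SE 0.059, limma adjusted p = 4.40e-11). POLR1C, a subunit that RNA polymerase III also uses, measured 4.61, 4.35 and 4.34 against 3.949, 3.996 and 4.133, a change of −0.41 (SE 0.089, limma adjusted p = 2.52e-04). Of POLR1C's values DMSO replicate 1 was the highest by a clear margin, and the groups still did not overlap. XPO5, called lower itself at −0.72, runs on the opposite strand and shares 6.32% of POLR1C's exon bases. Whether the authors counted reads by strand is not given in the sources used here.

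Of the factors that bring the polymerase to the ribosomal DNA, TAF1D and RRN3 were called lower and UBTF was not called. TAF1D, a part of the selectivity complex that marks the promoter, measured 6.35, 6.29 and 6.41 log2 CPM in DMSO and 5.89, 5.92 and 5.98 with fostamatinib, a change of −0.42 (SE 0.052, limma adjusted p = 2.64e-08). RRN3, the factor that links the polymerase to that complex, measured 5.97, 5.94 and 6.07 against 5.85, 5.82 and 5.75, a change of −0.18 (SE 0.056, limma adjusted p = 6.34e-03). RRN3's groups lay close together without overlapping, and its call was lost without a mean-variance trend in limma, with an adjusted p of 0.0531. Its copy RRN3P3 held 54, 69 and 74 reads in DMSO and 31, 44 and 43 with fostamatinib and was called lower, and RRN3P1 and RRN3P2 were not called.

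UBTF, the architectural protein that coats active ribosomal genes, was the sole member above 0. It measured 6.42, 6.47 and 6.39 log2 CPM in DMSO and 6.49, 6.46 and 6.49 with fostamatinib. The samples of both groups mixed, and the change was 0.052 with a 95% confidence interval from −0.046 to 0.15 (limma adjusted p = 0.399). A fall of the size seen for POLR1A lies outside that interval.

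The remaining subunits and factors of RNA polymerase I, which are not members, were read from the same fit. Of 14 listed 13 were found, 5 were called lower and 0 higher, or 38.5% lower against 24.5% of all genes, and the median of this list was −0.00013. The largest fall, −1.26 (SE 0.074, limma adjusted p = 1.78e-16), was that of CD3EAP, now named POLR1G, the partner of POLR1E in a heterodimer. It measured 5.5, 5.495 and 5.452 log2 CPM in DMSO and 4.27, 4.06 and 4.32 with fostamatinib, below every DMSO sample. TWISTNB, now POLR1F and a part of the polymerase stalk, changed by −0.46 (SE 0.066, limma adjusted p = 2.90e-07). TAF1A and TAF1B of the selectivity complex changed by −0.72 and −0.34, and the termination factor TTF1 by −0.22.

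Of the subunits that RNA polymerase I shares with RNA polymerases II and III, POLR2E, POLR2H, POLR2K and POLR2L did not pass the test. POLR2F, also shared, was not found among the listed genes. POLR1D, ZNRD1, TAF1C and TBP did not pass either. The changes of POLR1D and the 4 shared subunits found were at most 0.10 log2 units in size. ZNRD1, now POLR1H, was the least precise of these, at 0.10 with an SE of 0.14.

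**Figure D2:**
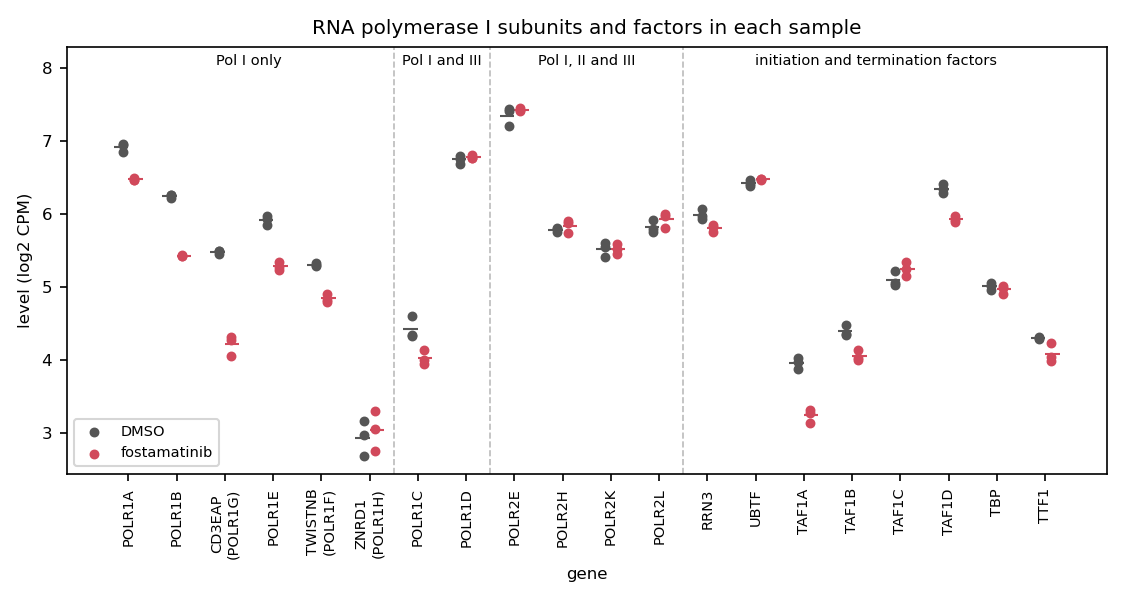
Level in log2 CPM of 20 RNA polymerase I subunits and factors in each sample, grey for DMSO and red for fostamatinib, with a short line at each group's mean and dashed lines between the classes of subunit. Among the subunits that are unique to RNA polymerase I all but ZNRD1 were called lower. The points of the 4 found that are shared with RNA polymerases II and III overlap between the groups or lie close together. None of the 4 was called, and POLR2F was not found.

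Box C/D snoRNPs place methyl groups on the ribose of ribosomal RNA, and their 3 core members were all called lower. FBL, the methyltransferase itself, measured 7.09, 7.08 and 7.03 log2 CPM in DMSO and 6.35, 6.30 and 6.35 with fostamatinib, a change of −0.73 (SE 0.046, limma adjusted p = 1.18e-15). NOP56, one of the paired scaffold proteins, measured 7.86, 7.94 and 7.86 against 7.41, 7.40 and 7.31, a change of −0.51 (SE 0.042, limma adjusted p = 1.20e-12). NOP58, its partner, measured 6.66, 6.69 and 6.73 against 6.21, 6.23 and 6.16, a change of −0.49 (SE 0.048, limma adjusted p = 1.11e-10). The groups of all 3 genes were apart, and the ranges of NOP56 and NOP58 moved by similar amounts.

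Box H/ACA snoRNPs convert uridine to pseudouridine, and their 4 core members were called lower by unequal amounts. DKC1, the pseudouridine synthase, measured 6.91, 6.83 and 6.78 log2 CPM in DMSO and 6.05, 6.10 and 6.08 with fostamatinib, a change of −0.76 (SE 0.050, limma adjusted p = 2.82e-15). GAR1, which binds the synthase, measured 4.67, 4.59 and 4.73 against 3.87, 3.92 and 3.85, a change of −0.78 (SE 0.082, limma adjusted p = 5.47e-10). Both lay well below DMSO in all 3 samples.

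NHP2, an RNA-binding core protein, measured 5.84, 5.93 and 5.80 log2 CPM in DMSO and 5.46, 5.45 and 5.47 with fostamatinib, a change of −0.40 (SE 0.057, limma adjusted p = 3.81e-07). NOP10, the smallest core protein, measured 5.95, 5.90 and 5.77 against 5.78, 5.69 and 5.68. NOP10's groups overlapped, since DMSO replicate 3 lay within the fostamatinib range. Its change of −0.15 (SE 0.058, limma adjusted p = 0.0297) was no longer called in limma without a trend or without any one of DMSO replicate 1, DMSO replicate 2, fostamatinib replicate 2 and fostamatinib replicate 3, with adjusted p-values of 0.124, 0.172, 0.0799, 0.103 and 0.109.

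The 3 scaffold and chaperone proteins of the nucleolus were all called lower and include the most abundant messages of the list. NPM1, nucleophosmin, measured 10.52, 10.50 and 10.60 log2 CPM in DMSO and 9.98, 9.99 and 9.91 with fostamatinib, a change of −0.58 (SE 0.034, limma adjusted p = 1.45e-16). NCL, nucleolin, measured 9.91, 9.95 and 9.997 against 9.32, 9.28 and 9.31, a change of −0.65 (SE 0.034, limma adjusted p = 5.35e-18). Both proteins bind precursor ribosomal RNA and chaperone assembly, and both messages lay lower in every fostamatinib sample.

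NOLC1, a chaperone of snoRNPs on their way to the nucleolus, measured 8.07, 8.17 and 8.14 log2 CPM in DMSO and 7.35, 7.22 and 7.23 with fostamatinib, a change of −0.86 (SE 0.043, limma adjusted p = 1.79e-18). The pseudogene NPM1P27 is a near copy of NPM1 and can share its reads. It held 702, 771 and 687 reads in DMSO and 432, 470 and 465 with fostamatinib, and its change was −0.57.

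Of the 13 members of small-subunit assembly 12 were called lower, with a median of −0.65. The largest fall was that of RRP12, which takes part in the export of subunit precursors (chr10:99116115-99185833, minus strand, GRCh37). RRP12 measured 6.05, 5.99 and 5.88 log2 CPM in DMSO and 4.94, 4.75 and 4.75 with fostamatinib, a change of −1.16 or 0.447-fold (SE 0.065, limma adjusted p = 5.74e-17). RRP9, a protein specific to the U3 snoRNP that guides the first cuts of the precursor (chr3:51967445-51975920, minus strand), measured 5.19, 5.24 and 5.09 against 4.15, 4.09 and 4.14, a change of −1.05 or 0.484-fold (SE 0.074, limma adjusted p = 2.94e-14). Both genes were far below DMSO in all 3 samples.

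The small-subunit processome, the large particle that forms on the new transcript, was covered by HEATR1, UTP4, UTP15, UTP20, WDR43, WDR75 and NOP14. All were called lower, from −0.72 for UTP15 and WDR43 and −0.71 for UTP20 through −0.65 for NOP14, −0.61 for UTP4 and −0.55 for HEATR1 to −0.48 for WDR75. HEATR1, UTP4, UTP15, WDR43 and WDR75 belong to the subcomplex that is also needed for transcription of the ribosomal genes. BYSL, bystin, changed by −0.81 (SE 0.075), the helicase DDX10 by −0.55 (SE 0.069), and NAT10, which acetylates ribosomal RNA, by −0.38 (SE 0.051).

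NOC4L was the sole gene of this role that was not called. It measured 3.55, 3.70 and 3.66 log2 CPM in DMSO and 3.50, 3.58 and 3.37 with fostamatinib, with overlapping groups. The change was −0.16 with a 95% confidence interval from −0.37 to 0.055 (limma adjusted p = 0.226). NOC4L and NOP14 are partner proteins in the processome, and the 2 changes, −0.16 and −0.65, were not tested against each other.

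All 18 members of large-subunit assembly were called lower, with a median of −0.56. RRS1, which helps install the smallest ribosomal RNA in the large subunit, had the largest fall of the list. It measured 4.58, 4.69 and 4.56 log2 CPM in DMSO and 3.44, 3.56 and 3.26 with fostamatinib, a change of −1.19 or 0.44-fold (SE 0.093, limma adjusted p = 5.03e-13). Of RRS1's fostamatinib samples replicate 3 was the lowest, and all 3 lay far below the lowest DMSO sample.

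NOC3L, an early assembly factor (chr10:96092983-96122716, minus strand, GRCh37), measured 5.76, 5.74 and 5.83 log2 CPM in DMSO and 4.75, 4.91 and 4.61 with fostamatinib, a change of −1.02 or 0.493-fold (SE 0.069, limma adjusted p = 8.15e-15). NOP16, a nucleolar assembly protein (chr5:175810949-175815928, minus strand), measured 5.561, 5.504 and 5.478 against 4.50, 4.56 and 4.51, a change of −0.99 or 0.504-fold (SE 0.066, limma adjusted p = 6.63e-15). Neither gene's groups came near each other. MRTO4, a placeholder for the ribosomal stalk, followed at −0.83 (SE 0.060).

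BOP1, PES1 and WDR12 form a complex that is needed to process the large-subunit RNA. BOP1 changed by −0.70 (SE 0.071), PES1 by −0.50 (SE 0.054) and WDR12 by −0.39 (SE 0.0585). The GTPases GNL3, nucleostemin, and GNL2 changed by −0.44 and −0.30, the ribosomal RNA methyltransferase NOP2 by −0.49, and the helicase DDX18 by −0.59. NIP7, WDR74, RRP1, RRP1B and NOC2L lay between −0.59 and −0.38.

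The weakest calls of this role were DDX56 and PPAN. DDX56, a helicase, changed by −0.14 (SE 0.047, limma adjusted p = 0.0117), with groups that did not overlap. Its adjusted p was 0.0715 without a trend and 0.102 without fostamatinib replicate 2. PPAN held 40, 41 and 34 reads in DMSO and 26, 21 and 24 with fostamatinib, a change of −0.60 (SE 0.23, limma adjusted p = 0.0324). PPAN was not called without DMSO replicate 1, DMSO replicate 2 or fostamatinib replicate 2, with adjusted p-values of 0.116, 0.0809 and 0.114. The read-through gene PPAN-P2RY11 covers 47.6% of PPAN's exon bases in the annotation, so that reads may have been divided between them.

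DDX21 and LYAR complete the list. DDX21, a helicase that links RNA polymerase I transcription to processing (chr10:70715891-70744824, plus strand, GRCh37), measured 8.41, 8.38 and 8.48 log2 CPM in DMSO and 7.45, 7.44 and 7.37 with fostamatinib, a change of −1.004 or 0.499-fold (SE 0.040). With about 5020 reads per DMSO sample it had the lowest adjusted p of all members in limma, 3.73e-21. LYAR, a nucleolar zinc finger protein, changed by −0.61 (SE 0.055).

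Changes within a role were of unequal size. For 6 roles, all but that of DDX21 and LYAR, a pair of members was compared sample by sample. The pair was the member with the largest fall and the one whose change was smallest in size. Since both were chosen for their changes, the comparison is a description with no test. The log2 ratio of POLR1B to UBTF went from a mean of −0.18 in DMSO to −1.05 with fostamatinib, that of GAR1 to NOP10 from −1.21 to −1.84, and that of RRP12 to NOC4L from 2.34 to 1.33. FBL to NOP58 went from 0.37 to 0.13, NOLC1 to NPM1 from −2.41 to −2.69, and RRS1 to DDX56 from −2.22 to −3.26. In none of the 6 did the groups overlap.

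Levels can be compared between genes only per length. On the log2 RPKM scale, with the length of the canonical transcript in the annotation, the highest levels in DMSO were those of NPM1 at 10.14, NCL at 7.98, NOP56 at 6.95, FBL at 6.90 and NOP10 at 6.85. The lowest were PPAN at 0.20, UTP15 at 2.47, WDR12 at 2.71 and NOC4L at 2.91. POLR1A and POLR1B lay close together near the lower end, at 3.28 and 3.34, and POLR1E was higher at 5.03. These positions depend on the annotated lengths, 12480 bases for POLR1A, 7527 for POLR1B and 8068 for WDR12. With shorter transcripts their levels per length would be higher. Across the 49 members with a length, level and log2 change had a Spearman coefficient of 0.037, a description across genes that share the same libraries.

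**Figure D3:**
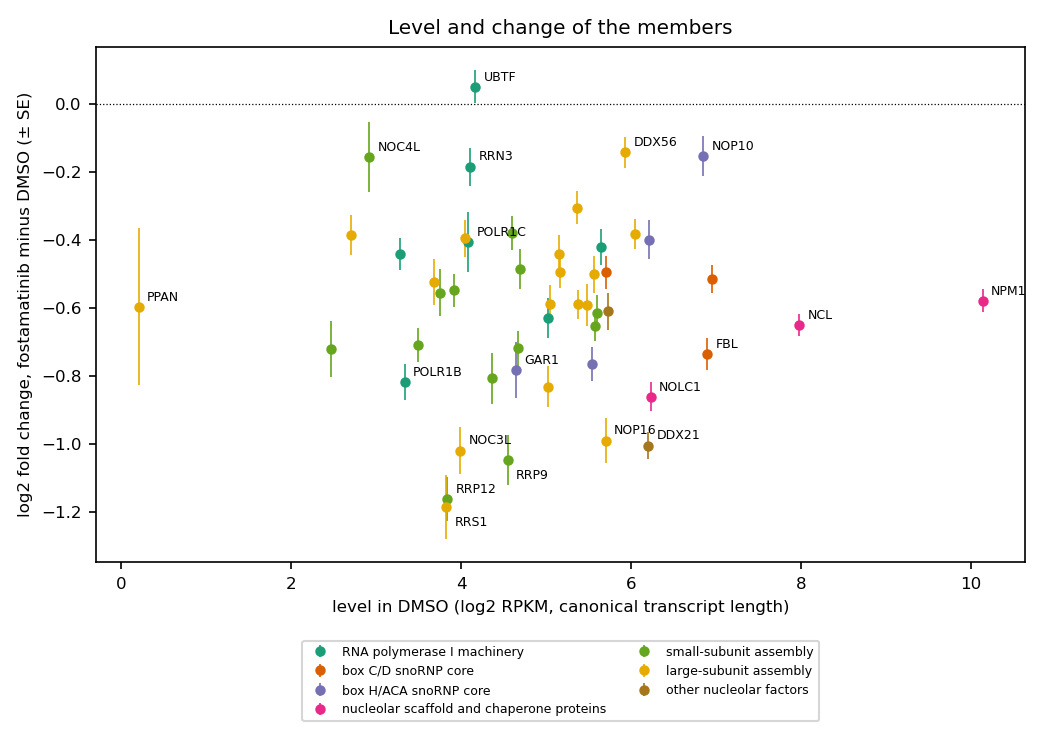
Change with fostamatinib (log2 scale, bars ± SE) against the level in DMSO (log2 RPKM by canonical transcript length) for the 49 members with a length, coloured by role. Falls of about 1 log2 unit occur from a level of 3.82 for RRS1 to 6.20 for DDX21, and the small changes of UBTF, NOC4L, RRN3, DDX56 and NOP10 are spread from 2.91 for NOC4L to 6.85 for NOP10.

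The pathway beyond the members was read from the same fit in lists of related genes, whose backgrounds are the same 24.5% lower and 23.3% higher. Among 45 other small-subunit assembly factors 32 were called lower and 0 higher, with a median of −0.30. PNO1, a late-acting factor, and the helicase DHX37 led them at −0.77 and −0.71. Among 46 other large-subunit assembly factors 36 were called lower and 1 higher, with a median of −0.33. URB2 and NLE1 fell by 1.02 and 0.95 on the log2 scale, and the sole rise was that of NOP53, by 0.26 (limma adjusted p = 1.88e-05).

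The RNA exosome trims precursor ribosomal RNA, and of its 14 listed genes 9 were called lower and 1 higher, with a median of −0.29. EXOSC5 and EXOSC2 fell by 1.03 and 0.70 on the log2 scale, and EXOSC6 rose by 0.26. RNA polymerase III makes the smallest ribosomal RNA and the transfer RNAs. Of its 22 subunits and factors 10 were called lower and 2 higher, with a median of −0.11. POLR3G and POLR3GL, which encode alternative forms of one subunit, were called in opposite directions, at −0.89 (SE 0.11) and 0.63 (SE 0.12).

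The 79 cytosolic ribosomal protein genes had a median of −0.052, with 28 called lower and 6 higher. The lower count was 7 in limma without a trend, 11 without fostamatinib replicate 3 and 18 without DMSO replicate 1, and the higher count was 1 without a trend and 2 without fostamatinib replicate 1. Most of these changes were small, the middle of the list lying between −0.11 and 0.016. RPL36A fell by 0.71 on the log2 scale (SE 0.23, limma adjusted p = 0.0109). It held few reads, 43, 36 and 40 in DMSO and 21, 27 and 20 with fostamatinib. RPL17 fell by 0.45, and RPL28 and RPS28 rose by 0.19 and 0.16. These genes have many near-identical pseudogene copies, so that their counts are uncertain. Of 17 regulators of ribosomal DNA transcription 5 were called lower and 7 higher. MYC, the transcription factor known to drive many genes of ribosome assembly, changed by −0.64 (SE 0.053, limma adjusted p = 2.62e-12), and TCOF1, treacle, a nucleolar partner of UBTF, by −0.64 (SE 0.044, limma adjusted p = 1.70e-14). TSC2 and TSC1, which restrain growth signalling, rose by 0.43 and 0.41.

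**Figure D4:**
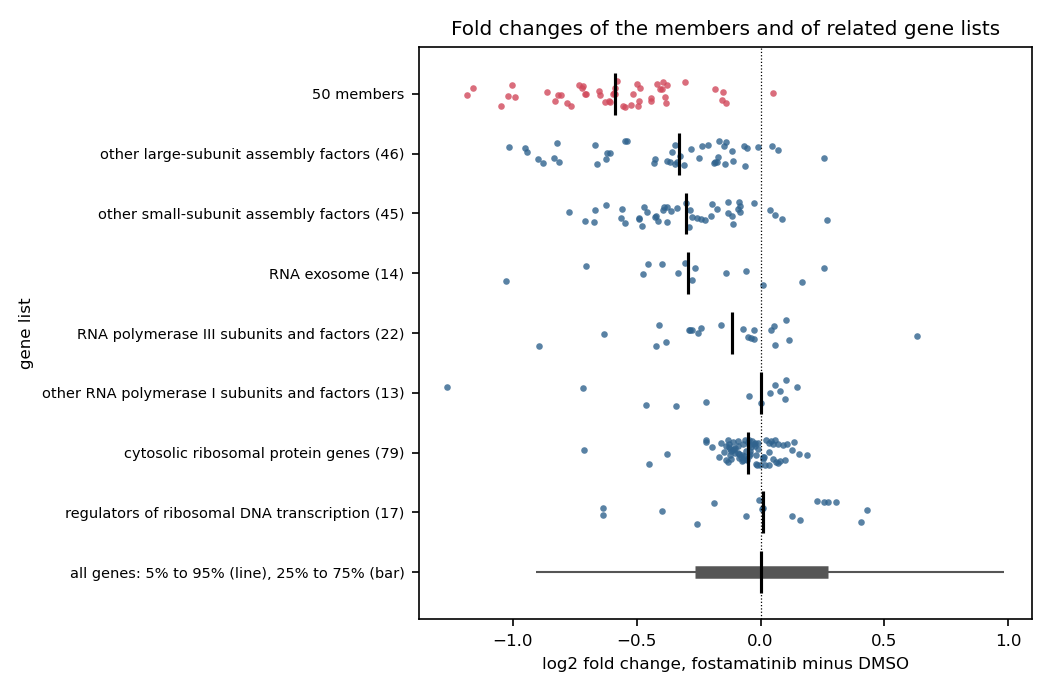
Change with fostamatinib (log2 scale) of each gene of the 50 members and of 7 related lists, with the number of genes in brackets and a black line at each median, and the spread of all 16305 genes in the bottom row. The medians are −0.59 for the members, −0.33 and −0.30 for the other large- and small-subunit factors, −0.29 for the exosome and −0.052 for the ribosomal protein genes.

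Several members carry genes of small nucleolar RNAs, the guides of the snoRNPs, within their spans. In the GRCh37 annotation 10 of the 49 located members contain 32 such genes, 31 of them on the host's own strand. TAF1D holds 8, GNL3 holds 5, NOP58 holds 4, and NOP56, NCL and WDR43 hold 3 each, while DKC1 and PPAN hold 2 each and POLR1C and UTP20 hold 1 each. All 10 were called lower, as were 48 of the 50 members as a whole. Their median was −0.55, against −0.59 for the other 40 members, which include BOP1, not located in the annotation. The gene within UTP20, snoU13, is the one on the opposite strand. None of the 32 was among the genes listed in the files, which come from poly(A)-selected RNA, so their own levels are not analysed here.

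The members lie on 20 chromosomes, and the exons of 21 overlap those of another gene. Listed genes on the opposite strand overlap 13 members in 19 cases, and of these genes 3 were called lower and 9 higher. LGALS8 shares 23.1% of HEATR1's exon bases and changed by −0.0063, RMND5B shares 28.0% of NHP2's and changed by 0.066, and NOP14-AS1 shares 20.7% of NOP14's and changed by 0.11, none with a call. Without strand in the counting, reads from such a pair could not be told apart. On the same strand an unnamed protein-coding gene shares 54.4% of NOP2's exon bases, and another shares 11.3% of RRS1's. Neither was listed, and how reads in such shared bases were counted is not given in the sources used here.

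Promoters were searched for CACGTG, the palindromic E-box that MYC and related factors bind, in the 250 bases before each RefSeq transcription start (GRCh38.p14). Of the members 42 matched the table, with 52 promoters. The others, BOP1, DDX18, NOLC1, NOP58, POLR1E, RRP12, RRP1B and RRS1, had no match and were not searched. RRS1 and RRP12 had the largest falls of the list. The motif was present in 6 of the 52, or 11.54%, and in 8.17% of 15211 promoters of the genes in the files. With 6 promoters that share is close to the background. It lay before starts of DDX21, LYAR, NAT10, NOP10, UTP20 and UTP4, whose changes were −1.004, −0.61, −0.38, −0.15, −0.71 and −0.61. The last 30 bases before the start of those with a match there are shown 5′ to 3′ on the gene's strand, with the motif in capitals.
UTP20, chr12:101280075-101280104, plus strand: gcgccgttcttttttccgtcCACGTGaccc
UTP4, chr16:69132619-69132648, plus strand: tgagagcgcgcgcgCACGTGgggccggggc
NAT10, chr11:34105599-34105628, plus strand: tttaatgcgcttgcgCACGTGctgtctacc
NOP10, chr15:34343137-34343166, minus strand: caggaaggaaattgacgaaCACGTGacgcg
In these 4 the motif begins 10 to 16 bases before the start, and NOP10, with 2 matches in its 250 bases, had one of the smallest changes of the list. A match is a description of the letters and shows no binding.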

How the data were processed

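Poly(A)-selected RNA libraries of 3 DMSO and 3 fostamatinib samples were analysed as grouped by their labels. HISAT was used by the authors for alignment to hg19 and featureCounts for counting, after which genes with few reads were removed and libraries were scaled by TMM factors. The deposited values are log2 CPM made by the authors from the count plus 0.5. Whole reads were recovered from them, with 100% of values within 0.05 of a whole number, and gave 13303451 to 15272737 reads per sample on listed genes. Counting error is largest for genes with few reads.

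A linear model with treatment as the single term was fitted to all 16305 genes with limma 3.58.1 in R 4.3.3 (lmFit, eBayes with a mean-variance trend), with Benjamini-Hochberg adjustment and a threshold of 0.05. The code was checked on simulated data. For 3 against 3 samples a two-sided exact permutation test cannot go below 0.10, so it was not used. Tables and plots were made with Python 3.11.15, pandas 2.3.3, scipy 1.17.1 and matplotlib 3.10.9. Positions, lengths and overlaps came from the GENCODE version 44 annotation lifted to GRCh37, which held 98.7% of the gene identifiers and all members except BOP1.

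Every member could be named. Values per sample were given for the 6 largest falls, the RNA polymerase I machinery, snoRNP cores and scaffold proteins. Of each related list at most the 2 largest falls and rises were named, together with all RNA polymerase I components. PPAN, NOC4L and the marker and overlapping genes were added after their values were seen. The members and lists were chosen with earlier results of these data known. MPP6 was planned as an exosome gene but left out, since that symbol also names an unrelated gene. Alternatives were limma-voom on recovered reads, no trend, median-ratio or library-size scaling, 2 stricter filters, 2 added reads, the replicate block and the omission of each sample. The replicate numbers were not taken to pair the samples.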

Additional observations from a re-analysis of the deposited data

How the results depend on the processing

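Over 14 alternative settings 45 to 48 members were called lower and 0 higher, and the members' median stayed between −0.61 and −0.58. No member changed direction past the threshold, and 4 members, NOP10, PPAN, DDX56 and RRN3, lost their call in at least 1 setting, with the adjusted p-values given above. The median over all genes moved between −0.0096 and 0.0052. The related lists were less stable. In limma without a trend the ribosomal protein genes called lower numbered 7 and those called higher 1, against 28 and 6, the RNA polymerase III genes called higher 1 and the exosome genes called higher 0. The same setting gave 6382 calls over all genes against 7794. Leaving out 1 sample at a time gave 11 to 32 ribosomal protein genes called lower, with 11 without fostamatinib replicate 3 and 18 without DMSO replicate 1, and 2 to 9 called higher, with 2 without fostamatinib replicate 1. It gave 1 to 3 RNA polymerase III genes, 0 to 1 exosome genes and 0 to 1 other RNA polymerase I genes called higher, and 0 to 1 members with every fostamatinib sample above DMSO, the 1 without DMSO replicate 2 or fostamatinib replicate 2. Causes were not tested. With a replicate block in the model 7977 genes and 48 members were called. Deviations of same-numbered samples correlated at 0.036, −0.021 and 0.037 over 12249 genes, so the numbers were not taken as pairs, although a few structured RNA rows at low counts were highest in the sample numbered 1 of both groups. The block changed no member's call. Depth limits PPAN, and the log2 scale with 0.5 added reads slightly understates changes of such low genes.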

Other observations

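Some of the members with the largest falls share a chromosome, a feature that was noticed after the values were seen and that carries no test. Chromosome 10 holds 4 of the 49 located members, DDX21, NOC3L, NOLC1 and RRP12, and all 4 are among the 7 members with the largest falls, at −1.004, −1.02, −0.86 and −1.16 on the log2 scale. The other 3 of these, RRS1, RRP9 and NOP16, lie on chromosomes 8, 3 and 5. The limit of 7 was also set after the values were seen, and NOLC1 is the last within it, at rank 7. Over all 629 listed genes of chromosome 10 the median change was −0.040 and 28.8% were called lower. Chromosome 2 holds 8 members, none of them among the 7, and its 1080 listed genes had a median of −0.033 with 27.3% called lower.

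A few structured RNAs of the ribosome and its processing were listed at low counts despite the poly(A) selection. SNORD3A, a copy of the U3 small nucleolar RNA that works with RRP9, held 30, 3 and 11 reads in DMSO and 28, 2 and 9 with fostamatinib. The RNA5SP202 pseudogene held 29, 3 and 8 reads against 30, 1 and 3. In both rows the sample numbered 1 was the highest of its group, in DMSO and with fostamatinib alike. RNA5-8S5 held 15, 8 and 8 against 18, 8 and 8 reads. None of the 3 was called, and these rows do not measure the ribosomal RNA content of the cells.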
